A study of Homo sapiens with 30 samples.

Results

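Integrins are transmembrane receptors that join the cytoskeleton to the extracellular matrix. Each receptor pairs 1 α subunit with 1 β subunit, and the pair sets the ligand it binds. The 8 integrin genes described here are ITGB1 (the β1 subunit, shared by many receptors), 4 genes for α subunits that pair with it, namely ITGA5 (fibronectin receptor), ITGA3 and ITGA6 (laminin receptors) and ITGA2 (collagen receptor), and ITGAV with ITGB3 and ITGB5 (αV and its β3 and β5 partners, receptors for vitronectin and other ligands). They were chosen by name, with earlier results of these data known, out of 62700 annotated genes, of which 7617 held a peak in at least 1 list. LARP6 recognises RNA, collagen mRNAs being its best known targets, through a folded La-module that lies between disordered regions.

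The samples were U-87 MG cells, an established glioblastoma line. Doxycycline (60 ng/mL for 24 h, stated for every sample, parental cells included) induced a myc-tagged, codon-optimised LARP6 transgene in 5 lines, and untransduced parental cells were the control. One line made the full-length protein (FL), and 4 made proteins that lacked the N-terminal region (ΔNTR), the C-terminal region (ΔCTR), the La-module (ΔLa-module), or both N-terminal region and La-module (ΔNTD). All lines kept their endogenous LARP6, and each transgenic line was 1 drug-selected lentiviral pool. The study asked which parts of LARP6 direct it to which RNAs. Binding was measured by iCLIP, in which UV light crosslinks a protein to RNA and the crosslink sites are sequenced, in 18 samples. These are read here as 5 peak lists, 1 per variant, each merged from 3 replicates with parental peaks removed. A peak's score is a whole-number sum over replicates and was at least 3. RNA levels come from 6 long-RNA libraries, 1 per line, of 25027075 to 28692476 counts in genes. No list or library has a replicate, so no comparison below has a test. Intervals are at 95% and cover counting error only.

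On GRCh38, the minus-strand genes were ITGB1 (chr10:32887273-33005792, 16 MANE exons, mRNA of 3735 nt), ITGA5 (chr12:54395261-54419266, 30 exons, 4250 nt) and ITGB5 (chr3:124761948-124901418, 15 exons, 4440 nt). The plus-strand genes were ITGA3 (chr17:50055968-50090481, 26 exons, 4889 nt), ITGA6 (chr2:172427354-172506459, 26 exons, 5816 nt), ITGA2 (chr5:52989340-53094779, 30 exons, 7843 nt), ITGAV (chr2:186590010-186680901, 30 exons, 7039 nt) and ITGB3 (chr17:47253827-47313743, 15 exons, 5941 nt).

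VIM (7020 to 8007 CPM, counts scaled to a common library total) and CD44 (2084 to 2339 CPM) were high in all 6 lines, whereas the glial and glioma markers SOX2, S100B and GFAP had at most 6 counts and OLIG2 1.46 to 2.55 CPM. NES lay at 52.0 to 57.9 CPM. CDH1, PTPRC and RBFOX3 had at most 4 counts, and EPCAM and PECAM1 ranged from 0.98 to 2.48 CPM. LARP6 itself gave 51.7 to 75.0 CPM, which does not check the labels because the transgene was codon-optimised.

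The sequence under the highest FL peak shows what LARP6 was crosslinked near in each integrin mRNA. For the 7 genes with an FL peak, 25 nt around its centre are printed from the GRCh38 genome, sense strand. The longest unbroken run of C and T, or the first of equally long runs, is in capitals.
ITGA3: cagaCCTTCTagtgggaagcctgtc
ITGB1: tgaaatttaTTCTggcaaattctgc
ITGA5: agaaCTCaaatggggccagatccag
ITGAV: ggtggggcaggtctcagtgTCTCTa
ITGB5: cccgcgCTCCggccccagccccggc
ITGA2: gagggcattgaaaacaCTCgatttg
ITGA6: aataacaCTTTTTTTgacatgaaca
The ITGA3 window (chr17:50074235-50074259, plus strand, coding sequence of exon 9) lies in a peak of score 88. The ITGB1 window (chr10:32911935-32911959, minus strand, coding sequence of exon 12) lies in a peak of 47, and the ITGA5 window (chr12:54395665-54395689, minus strand, 3'UTR in exon 30) in a peak of 23. The ITGAV window (chr2:186641452-186641476, plus strand, coding sequence of exon 12) had a peak score of 9. The last 3 peaks were near the floor of the list, with scores of 4 for ITGB5 (chr3:124887056-124887080, minus strand, 5'UTR in exon 1), 3 for ITGA2 (chr5:53064948-53064972, plus strand, coding sequence of exon 14) and 3 for ITGA6 (chr2:172470997-172471021, plus strand, coding sequence of exon 5). Exons are numbered along the reference (MANE Select) transcript. ITGA2 had 4 FL peaks of equal score, of which the first along the chromosome is shown.

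Over all regions together, and within the coding sequence, the pyrimidine share of the integrin FL peaks was close to that of the genes themselves. Within the 3'UTR it was higher, while runs of pyrimidines were more frequent than in the genes in both coding sequence and 3'UTR. C and T made up 50.4% of the windows of all 110 integrin FL peaks, 50.3% of all annotated exon sequence of the 8 genes and 52.7% of the windows of all FL peaks with sequence. The share was 48.8% at the ΔNTR and 48.6% at the ΔCTR integrin peaks, beside 53.1 and 52.2% over those whole lists. At the 13 integrin FL peaks of score 10 or more it was 45.5%. A run of at least 6 pyrimidines stood in 30.0% of integrin FL windows and in 30.2% of all FL windows. In the ΔNTR and ΔCTR lists it stood in 16.4 and 18.3% of integrin windows, beside 30.3 and 28.4% of all windows. Of every 25-nt window of the 8 genes' exons, 23.9% held such a run. In the coding sequence, the FL windows held 49.2% C and T against 48.0% of the 8 genes' coding sequence, and 27.8% of these 72 windows held a run against 15.3% of all coding windows of the genes. In the 3'UTR, the 25 FL windows held 54.4% against 50.6%, and 44% held a run against 24.6%. The shares of the genes are pooled by length over the MANE transcripts, whereas peaks were placed over all transcripts. Most coding windows were in ITGA3 (32), ITGA5 (20) and ITGB1 (13), whose coding sequences held 49.6, 51.1 and 43.9% C and T. Most 3'UTR windows were in ITGA3 (8) and ITGA5 (7), whose 3'UTRs held 51.5 and 50.1% C and T. Of all windows of these 3'UTRs, 27.9 and 29.1% held a run. With ΔNTR and ΔCTR, a run stood in 11.9 and 13.5% of the coding windows and in 25.7 and 27.3% of the 3'UTR windows, near or below the shares of the genes themselves. Over the whole FL list, 22.7% of coding and 35.2% of 3'UTR windows held a run. The genes differed among themselves, from 43.2% C and T at the 21 ITGB1 peaks to 52.4% at the 45 ITGA3 peaks and 63.2% at the 5 ITGB5 peaks.

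Binding of FL LARP6 to the integrin mRNAs was concentrated in 3 of them. ITGA3 (ENSG00000005884) had 45 FL peaks with a summed score of 337, ITGB1 (ENSG00000150093) had 21 peaks with 259 and ITGA5 (ENSG00000161638) had 28 peaks with 153. By summed score they ranked 22, 48 and 97 of 4873 genes with an FL peak. The other genes were far lower, with 5 peaks and a score of 21 in ITGAV (ENSG00000138448), 5 and 16 in ITGB5 (ENSG00000082781), 4 and 12 in ITGA2 (ENSG00000164171), and 2 and 6 in ITGA6 (ENSG00000091409). ITGB3 (ENSG00000259207) had no peak in any list. Together the 8 genes held 804 score units (749 to 862), 0.782% of the FL total. The ΔNTR list held 834 (778 to 893), or 0.897%, and the ΔCTR list 1040 (978 to 1105), or 0.876%. ITGA3, ITGB1 and ITGA5 led there too, as the bars of summed score show. ITGA3 scored 370 (333 to 410) and 392 (354 to 433) in ΔNTR and ΔCTR, ITGB1 254 (224 to 287) and 408 (369 to 450), and ITGA5 140 (118 to 165) and 171 (146 to 199). Of these, ITGB1 was the gene whose ΔCTR interval lay wholly above its FL interval (228 to 293).

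**Figure D1:**
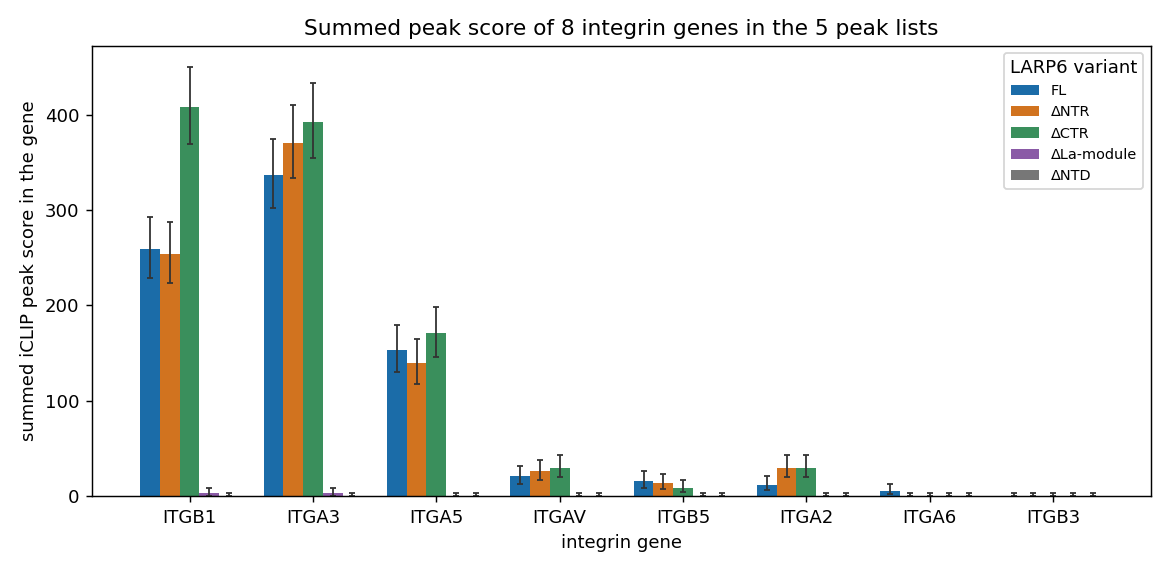
Summed iCLIP peak score (y axis, linear from 0) of each of the 8 integrin genes in the FL, ΔNTR, ΔCTR, ΔLa-module and ΔNTD lists. Bars are single pooled values and whiskers are exact 95% Poisson intervals; ITGB1, ITGA3 and ITGA5 stand above the other 5 genes in the first 3 lists, and the last 2 lists are at or near 0.

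The La-module deletions left almost no integrin peak. The ΔLa-module list had 1 ITGB1 peak and 1 ITGA3 peak, each of score 3, and the ΔNTD list had none. Of the 7 integrin genes with at least 3000 long-RNA counts in the line, 2 had a ΔLa-module peak and 0 a ΔNTD peak, beside 12.4% and 6.47% of all genes at that level. Those lists held only 636 and 291 peaks in all, against 14334 in the FL list. The ITGA3 peak (chr17:50076334-50076350, exon 13) overlapped an FL peak, and the ITGB1 peak (chr10:32922707-32922723, exon 8) did not. Of the 110 integrin FL peaks, 1 was overlapped by the ΔLa-module list (0.909%, Wilson interval 0.161 to 4.97%), beside 1.08% of all FL peaks.

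RNA level and binding can be set side by side gene by gene. At 3000 counts or more, a threshold chosen after the values were seen, 84.3% of 2205 genes had an FL peak, 87.7% of 1871 a ΔNTR peak and 88% of 2119 a ΔCTR peak, and 6 of 7 integrin genes did in each list. At 100 counts or more the shares were 40.1%, 41.4% and 43%, and 7, 6 and 6 of 8 integrin genes had a peak. These integrin counts lie close to the background or, at 100 counts, compare abundant mRNAs with a set that is mostly less abundant. Per 1000 long-RNA counts of the same line, the FL score was 7.25 (6.49 to 8.06) for ITGA3, 7.13 (6.29 to 8.06) for ITGB1 and 7.00 (5.93 to 8.20) for ITGA5, so these 3 did not differ beyond counting error. Over the 1858 genes with an FL peak and at least 3000 counts, the median was 2.57, and 83.5 to 84.3% of those genes lay below the 3. ITGB5 had 4.24 and ITGAV 3.28, nearer that median.

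ITGA2 was an abundant mRNA with little score. With 14344 counts in the FL line it had 0.837 per 1000 (0.432 to 1.46), an interval wholly below those of ITGA3, ITGB1 and ITGA5. Its value was 2.34 in the ΔNTR list (1.58 to 3.34) and 2.36 in the ΔCTR list (1.59 to 3.37). ITGB3 had 5462 counts and no FL peak, where 1 peak at the lowest listed score would have given 0.549 per 1000. ITGB3 shares its strand with a read-through gene (ENSG00000259753), so reads common to both may be missing from its count. ITGA6 gave 21.5 per 1000 (7.89 to 46.8), which rests on a score of 6 and 279 counts.

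**Figure D2:**
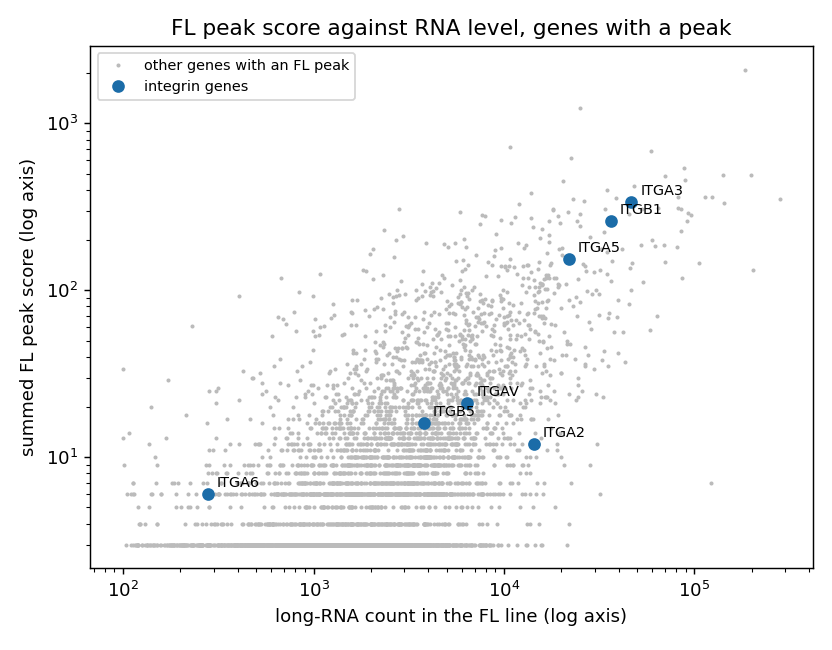
Summed FL peak score (y, log axis) against the long-RNA count in the FL line (x, log axis) for genes with an FL peak and at least 100 counts; grey points are other genes and blue points the 7 integrin genes with a peak. ITGA3, ITGB1 and ITGA5 lie toward the upper right, ITGA2 low for its count of 14344, and ITGB3, with no peak, is not drawn.

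The position of the peaks in the mRNA differed from the whole lists. Annotated by the peak centre, with coding sequence taken before UTR, 72 of 110 integrin FL peaks were in coding sequence, 25 in the 3'UTR, 6 in the 5'UTR and 7 in introns. The 3'UTR share was 22.7% (15.9 to 31.4%), beside 47.7% over the FL list. It was 30.2% in the ΔNTR list (22.6 to 39.1%) and 20.2% in the ΔCTR list (13.7 to 28.7%), beside 49.8 and 50.8%. This contrast depends on how transcripts are combined. Of the FL peaks, 39 were coding in 1 transcript and 3'UTR in another, and with the 3'UTR taken first the integrin share was 58.2%, against 57.9% over the FL list. For ΔNTR and ΔCTR it was then 65.5 and 63.3%, against 60.1 and 61.7%. On the MANE transcript alone the integrin shares were 25.5, 35.3 and 23.9%, against 47.0, 49.3 and 50.1% over the lists, a whole-list comparison added after the values were seen.

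In the FL list, score per kilobase (kb) of mRNA, which allows for the length of each part, separated the 3 main genes. On the MANE transcripts, the FL score of ITGB1 was 81.0 per kb of coding sequence and 9.56 per kb of 3'UTR. In ITGA3 it was 78.7 and 34.1. ITGA5 was the reverse, with 29.2 per kb of coding sequence and 56.0 per kb of 3'UTR. The ITGA5 coding sequence takes up 74.0% of its mRNA. The map of peaks along the mRNAs shows 1 tall peak in ITGA3, a group of tall peaks in ITGB1 and lower peaks in ITGA5, the highest of them in the 3'UTR.

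**Figure D3:**
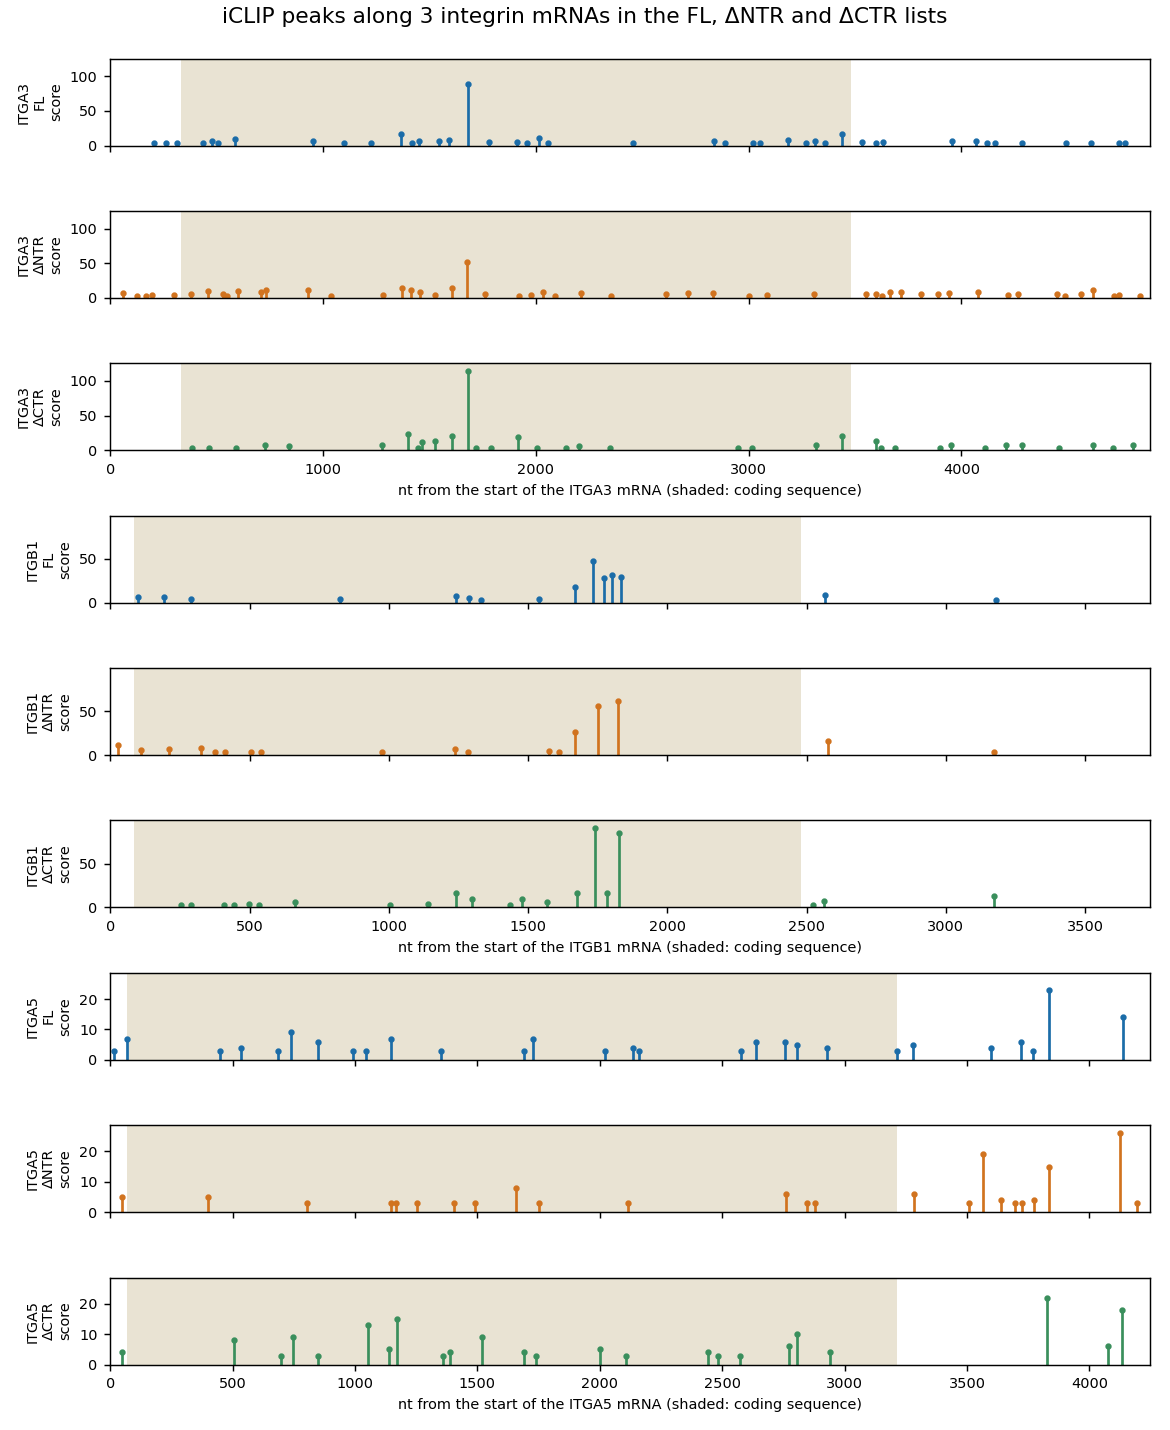
Score of each iCLIP peak (y, linear from 0, a common scale within a gene) at its centre in nt from the start of the MANE mRNA (x) of ITGA3, ITGB1 and ITGA5, in the FL, ΔNTR and ΔCTR lists; the coding sequence is shaded, and peaks outside the MANE exons are not drawn. The tallest ITGA3 peak is at the same place in each list (88, 52 and 114), and the ITGB1 peaks crowd into exons 12 and 13.

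In ITGB1, exons 12 and 13 carried most of the score. These exons make up 462 nt, 12.4% of the mRNA, and held 153 of 259 FL score units (59.1%), 152 of 254 in the ΔNTR list (59.8%) and 214 of 408 in the ΔCTR list (52.5%). The exon 12 site (chr10:32911884-32912046) scored 93 in the FL, 82 in the ΔNTR and 123 in the ΔCTR list, and the exon 13 site (chr10:32911601-32911678) scored 60, 61 and 85. Neighbouring peaks that are separate in one list can be joined in another, so sites were formed by merging overlapping peaks of the 3 lists. At both sites the ΔCTR score was the highest, with ratios to FL of 1.32 (1.00 to 1.75) and 1.42 (1.01 to 2.01). Scores are not scaled to depth, and both intervals hold 1.12, the ΔCTR ratio over all 3338 sites shared by the 3 lists. The ΔNTR ratios were 0.882 (0.647 to 1.20) and 1.02 (0.700 to 1.48), within counting error of equality. The ΔNTR ratio over all shared sites, 0.693, lies inside the first interval and just below the second.

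Other ITGB1 sites were smaller or were found in fewer lists. A narrow site (chr10:32894988-32895008) lay in an intron of longer transcripts, 5310 nt beyond the end of the MANE mRNA. It scored 38 in the FL, 14 in the ΔNTR and 67 in the ΔCTR list, giving ratios to FL of 0.368 (0.184 to 0.696) and 1.76 (1.17 to 2.70). The ratio over all shared sites lies just inside the ΔNTR interval (0.693) and just below the ΔCTR interval (1.12). A site in exon 10 (chr10:32920260-32920390) scored 16, 10 and 26. In the 3'UTR, 1 site (chr10:32901451-32901513) scored 9, 16 and 7, and another (chr10:32900856-32900905) 3, 3 and 13. A 5'UTR site (chr10:32958183-32958224) was listed in ΔNTR alone, with 11. Of the sites in ΔCTR alone, the highest were an intronic one (chr10:32890188-32890274, score 14) and one in exon 11 (chr10:32919936-32919984, score 10).

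In ITGA3, a single site in exon 9 was the highest in the FL, ΔNTR and ΔCTR lists. It (chr17:50074218-50074275) scored 88 in the FL, 52 in the ΔNTR and 114 in the ΔCTR list, 26.1, 14.1 and 29.1% of the gene's score. The ΔNTR score was 0.591 of FL (0.411 to 0.842) and the ΔCTR score 1.30 of FL (0.972 to 1.73). These intervals hold the ratios over all 3338 sites shared by the 3 lists, 0.693 for ΔNTR and 1.12 for ΔCTR. The summed score of the gene was not lower, at 370 in the ΔNTR and 392 in the ΔCTR list against 337 in FL. Other ITGA3 coding sites had higher ΔNTR scores, such as exon 7 (chr17:50072049-50072120), with 19, 27 and 23. A site in exon 3 (chr17:50064564-50064618) was listed with 0 with FL, 20 with ΔNTR and 7 with ΔCTR.

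A pair of ITGA3 sites were present in FL and ΔCTR and absent from ΔNTR. The first (chr17:50080171-50080205) lay in the intron before exon 22, its FL peak ending 63 nt before the exon, and scored 28 in FL and 22 in ΔCTR. The other, in exon 25 (chr17:50088269-50088310), scored 17 and 21. Around the FL centre of the intronic peak C and T made up 20% of the window, and 24% around that of the exon 25 peak. The window sequences are agCCTggaaggggcgggaggtaagg at chr17:50080173-50080197 and gaaggcggagatgaagagCCagccg at chr17:50088278-50088302, both plus strand, printed with the same use of capitals because these purine-rich windows differ most from the exon 9 window above. ITGA3 exon 26 gave 48 score units with FL, 100 with ΔNTR and 69 with ΔCTR, over 12, 18 and 12 peaks. Some of these peaks are coding in shorter ITGA3 transcripts and 3'UTR in the MANE one.

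ITGA5 differed in where the score lay rather than in how much there was. Its summed score was 153 with FL, 140 with ΔNTR and 171 with ΔCTR. The 3'UTR held 58 of the FL units (37.9%, 30.6 to 45.8%), 86 of the ΔNTR units (61.4%, 53.2 to 69.1%) and 46 of the ΔCTR units (26.9%, 20.8 to 34.0%). The ΔNTR interval does not overlap the other 2, and those overlap each other. The ITGA5 peaks of 10 or more, 2 in FL and 3 in ΔNTR, all lay in the 3'UTR. Its coding peaks scored at most 9 in FL and 8 in ΔNTR. These 2 shares thus depend on which coding peaks near the floor of 3 were listed. Over the whole lists the 3'UTR share of the score was 52.3, 52.0 and 56.1%. In ITGA3 the share was 9.50% with FL (6.81 to 13.1%), 17.6% with ΔNTR (14.0 to 21.8%) and 10.5% with ΔCTR. In ITGB1 it was 5.79, 7.48 and 5.64%, with overlapping intervals. By number of peaks, the ITGA3 shares were 17.8, 22.6 and 21.1%, also with overlapping intervals.

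The ITGA5 3'UTR score came from few sites, all in exon 30. One site (chr12:54395332-54395453) scored 14 with FL, 26 with ΔNTR and 24 with ΔCTR, and the next (chr12:54395651-54395709) scored 23, 15 and 22. Another (chr12:54395845-54395986) scored 4 in FL and 23 in ΔNTR, a ratio of 5.75 (1.96 to 22.9), and was absent from ΔCTR. In the coding sequence, a site in exon 12 (chr12:54405273-54405345) scored 7, 6 and 20, and one in exon 11 (chr12:54405666-54405723) scored 3 in FL and 13 in ΔCTR and was absent from ΔNTR. A site in exon 27 (chr12:54399729-54399766) scored 5 in FL and 10 in ΔCTR and was also absent from ΔNTR.

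ITGAV, ITGA2, ITGB5 and ITGA6 had only low peaks, none of 10 or more in any list. The highest ITGAV peaks scored 9 in FL (exon 12), 5 in ΔNTR and 6 in ΔCTR (both 3'UTR). Its summed scores were 21, 26 and 30, and all but 1 of its 7 ΔNTR peaks were in the 3'UTR. ITGA2 summed to 12, 30 and 30, and its highest peak, of score 9 in both deletion lists, lay at the same 3'UTR place (chr5:53092621-53092664), where FL had no peak. The ΔNTR window there, aaaaaaagaCTggagaaactagtca (chr5:53092634-53092658, plus strand), is shown because it is the highest integrin 3'UTR peak outside the 3 main genes, and it begins in a run of A. ITGB5 summed to 16, 14 and 9, with its highest ΔNTR peak, of 8, in exon 10 (chr3:124796538-124796562). ITGA6 had 2 FL peaks of score 3 and none in the other lists. These scores lie near the floor of 3, so a missing peak means that binding was not detectable at this depth.

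Sites common to FL, ΔNTR and ΔCTR held about as much of the integrin FL score as they did over the whole list. Overlapping peaks of the 3 lists formed 195 integrin sites, of which 29 were in all 3 lists (14.9%, 10.6 to 20.5%), beside 9.78% of 34120 sites over the whole lists. The 29 sites were in ITGA3 (16), ITGA5 (7) and ITGB1 (6). They held 60.4% of the FL, 54.4% of the ΔNTR and 65.1% of the ΔCTR score of the 8 genes, beside 60.0, 45.9 and 58.1% over the whole lists. ITGB1 was the most concentrated, with 84.6, 73.2 and 78.7% in its 6 shared sites. In ITGA5 the 7 shared sites held 44.4, 45.7 and 48.0%.

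Overlap rose with the score of the peak. The ΔNTR list overlapped 47.3% of integrin FL peaks (38.2 to 56.5%) and the ΔCTR list 50.9% (41.7 to 60.1%), beside 35.3 and 37.9% of all FL peaks. Peaks were dense in the main genes. In ITGA3, 53 ΔNTR peaks covered 1833 nt, beside an mRNA of 4889 nt. How much overlap such density gives by placement alone was not tested, here or for the shared sites above. Of the 13 integrin FL peaks of score 10 or more, ΔNTR overlapped 11 (84.6%) and ΔCTR 13 (100%), beside 88.2 and 93.2% over the list. Of the 46 of score 4 to 9, ΔNTR overlapped 32 (69.6%, 55.2 to 80.9%) and ΔCTR 23 (50.0%), beside 43.5 and 47.7%. Of the 51 of score 3, ΔNTR overlapped 9 (17.6%) and ΔCTR 20 (39.2%), beside 17.0 and 18.1%. By gene, the ΔNTR list overlapped 29 of 45 ITGA3, 12 of 21 ITGB1 and 11 of 28 ITGA5 FL peaks, and the ΔCTR list 22, 14 and 16.

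At shared sites, the ΔCTR scores were above FL and the ΔNTR scores were within counting error of it. Scores are not scaled to iCLIP depth, which differs between lists by an unknown amount, so each ratio is set beside that of all shared sites. Summed over the 29 sites, the score was 486 with FL, 454 with ΔNTR and 677 with ΔCTR, giving ratios of 0.934 (0.820 to 1.06) and 1.39 (1.24 to 1.57). For all 3338 shared sites, ΔNTR scored 0.693 of FL (0.684 to 0.701) and ΔCTR 1.12 (1.11 to 1.13). The intervals of the integrin ratios lie above both whole-list values, but 3 genes supply all of the sites, and differences between cultures are not in the intervals. The ΔCTR ratio was 1.47 in ITGB1 (1.23 to 1.75), 1.38 in ITGA3 (1.14 to 1.66) and 1.21 in ITGA5 (0.864 to 1.69). Among the 29 sites, 18 had a higher and 8 a lower score in ΔCTR than in FL, and 12 had a higher and 13 a lower one in ΔNTR.

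**Figure D4:**
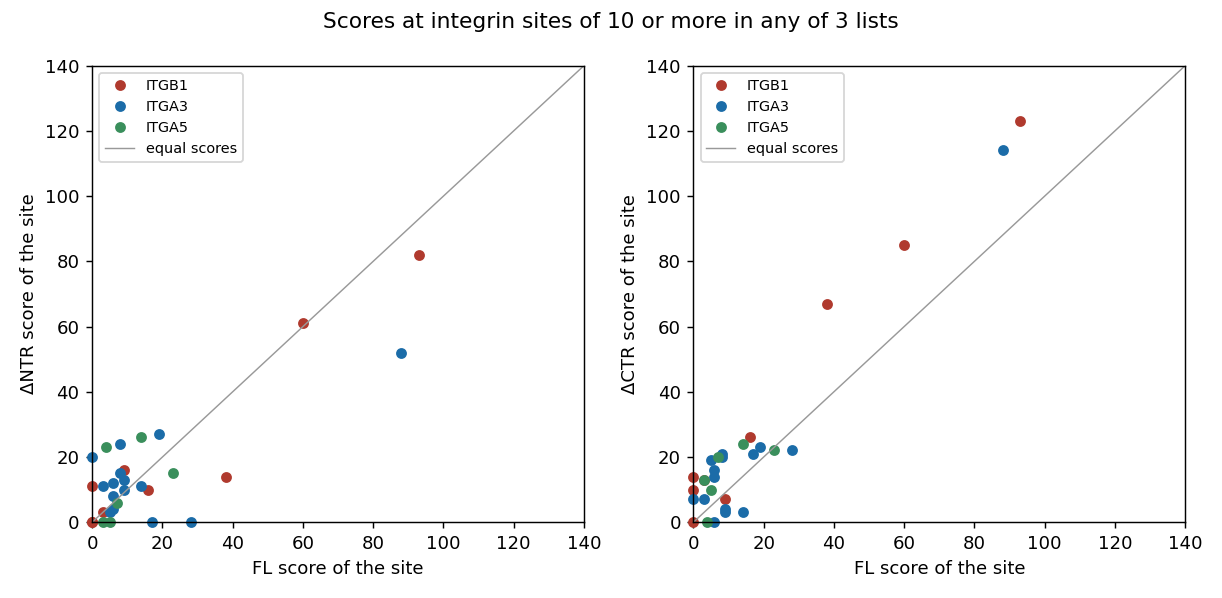
Score of integrin sites in the ΔNTR (left) or ΔCTR list (right) against the FL score, both axes linear from 0 to 140, for sites of at least 10 in any of the 3 lists; each point is 1 site and the line marks equal scores. The 4 sites of highest FL score lie above the line in ΔCTR, and in ΔNTR the ITGA3 exon 9 site (88 and 52) and the ITGB1 intronic site (38 and 14) lie below it.

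As a share of each list's total, no integrin gene with enough score departed from FL by 2-fold. Shares were compared for genes with a summed score of 50 or more over both lists, 803 genes for ΔNTR and 905 for ΔCTR. Of these, 9.09% were at least 2-fold higher and 12.6% at least 2-fold lower in ΔNTR, and 5.64% and 5.97% in ΔCTR. Of the integrin genes, ITGB1, ITGA3 and ITGA5 met the score limit in both comparisons and ITGAV in ΔCTR, and 0 passed 2-fold. The ΔNTR share was 1.21 times that in FL for ITGA3 (1.04 to 1.41), 1.08 for ITGB1 (0.908 to 1.29) and 1.01 for ITGA5 (0.799 to 1.28). The ΔCTR share was 1.36 times FL for ITGB1 (1.16 to 1.60), 1.01 for ITGA3 (0.868 to 1.17), 0.967 for ITGA5 (0.773 to 1.21) and 1.24 for ITGAV (0.685 to 2.27). ITGA2 fell short of the limit at 12 against 30, with share ratios of 2.76 (1.37 to 5.93) and 2.16 (1.08 to 4.64).

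The amount of integrin RNA differed little between the 6 lines. Median levels over the lines were 1718 CPM for ITGA3, 1301 for ITGB1, 815 for ITGA5, 487 for ITGA2, 229 for ITGAV, 188 for ITGB3, 130 for ITGB5 and 9.82 for ITGA6. Divided by mRNA length, ITGA3 and ITGB1 were about level, at 352 and 348 CPM per kb, followed by ITGA5 at 192, ITGA2 at 62.1, ITGAV at 32.6, ITGB3 at 31.6, ITGB5 at 29.3 and ITGA6 at 1.69. The highest line exceeded the lowest by 1.11 (ITGA2) to 1.28 times (ITGB3) in 7 of the genes, against a median of 1.19 over the 9074 genes of at least 10 CPM in every line. In CPM, neighbours in the order did not overlap over the 6 lines, the closest being ITGAV and ITGB3, at 231 and 219 CPM in the ΔNTR line. Per kb, ITGA3 overlapped ITGB1, and ITGAV, ITGB3 and ITGB5 overlapped one another.

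By line, ITGA3 was lowest in ΔNTD (1650 CPM) and highest in ΔNTR (1841), and ITGB1 lowest in ΔNTR (1237) and highest in ΔNTD (1404). ITGA5 ran from 777 in FL to 923 in ΔNTR, ITGA2 from 464 in ΔLa-module to 514 in ΔNTR and ITGAV from 225 in parental cells to 256 in ΔNTD. ITGB3 ran from 170 in ΔLa-module to 219 in ΔNTR. ITGB5 was highest in parental cells (146) and lowest in ΔCTR (117), and lay between log2 -0.31 and -0.04 of parental in the 5 variant lines. ITGA6 was the 1 gene with a larger spread, at 6.14 CPM (165 counts) in parental cells and 9.21 to 11.3 CPM (230 to 307 counts) in the others. Its differences from parental were log2 0.52 to 0.79 on the log2(CPM + 1) scale.

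**Figure D5:**
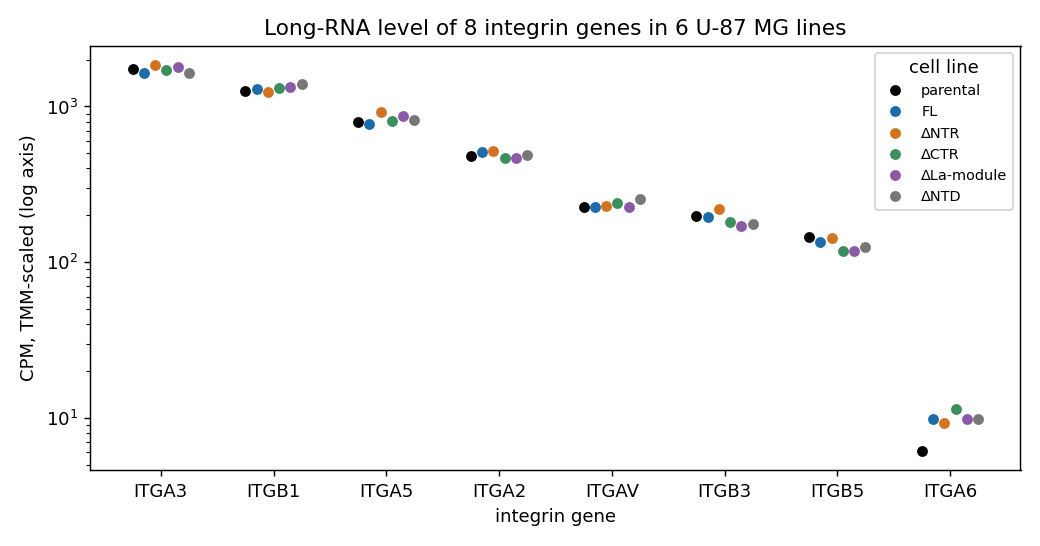
Long-RNA level of the 8 integrin genes (y, CPM after TMM scaling, log axis) in the parental, FL, ΔNTR, ΔCTR, ΔLa-module and ΔNTD lines; each point is 1 library. The points of a gene sit close together, except ITGA6, whose parental point (6.14) lies below its other 5 (9.21 to 11.3).

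No integrin gene differed 2-fold from parental cells in any line. Among 15078 genes of at least 1 CPM in some library, those at least 2-fold higher made up 0.0531% (FL), 0.676% (ΔNTR), 0.0663% (ΔCTR), 0.325% (ΔLa-module) and 0.245% (ΔNTD). Those at least 2-fold lower made up 0% (FL), 0.0464% (ΔNTR), 0.00663% (ΔCTR), 0.0663% (ΔLa-module) and 0.0663% (ΔNTD). With 0 of 8 integrin genes called, their count matches a background that calls almost nothing. The median log2 difference of the 8 genes was -0.01 (FL), 0.09 (ΔNTR), -0.00 (ΔCTR), 0.03 (ΔLa-module) and 0.03 (ΔNTD), beside a value of 0.00 or -0.00 over all genes tested in each line.

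Over the 6 lines ITGB1 varied most like MYL12B (Pearson r = 0.997), TRMT6 (0.997) and CIBAR1 (0.996), of 9073 genes compared, 238 of which had r above 0.9. With 6 points and so small a range of levels this is a description only, and the libraries share preparation. Among the integrins, r with ITGB1 was 0.70 for ITGAV and negative for the others compared, down to -0.88 for ITGB3.

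Related genes were read from lists chosen by function. Of 18 other integrin genes, 8 were expressed at 1 CPM or more and only ITGAX, a leukocyte α subunit, had an FL peak, of score 3. These 8 all had at least 100 counts, and 1 had a peak in FL, 1 in ΔNTR and 2 in ΔCTR. That is below the 40.1, 41.4 and 43% of all genes at that level, but none of the 8 reached 3000 counts. ITGA9, with 1 count, also had a ΔCTR peak. Of 24 integrin adaptors and regulators, peaks were found for 19 in the FL list, for 19 in ΔNTR and for 17 in ΔCTR. All 24 had at least 100 counts, where 40.1, 41.4 and 43% of all genes had a peak. Of those with at least 3000 counts, 14 of 14, 12 of 12 and 13 of 13 did, near the 84.3, 87.7 and 88% of all genes at that level. The genes of highest FL score were FLNA (filamin A, an actin crosslinker that binds β tails), with 364, 468 and 376 score units in FL, ΔNTR and ΔCTR, ACTN4 (α-actinin 4), with 343, 297 and 346, and LIMS1 (PINCH1, a partner of integrin-linked kinase), with 135, 79 and 128. Of 12 ligand genes, 9 had an FL peak, and of the 9 with at least 3000 counts in the line 8 did, also near the 84.3% of all genes. FN1, which encodes the fibronectin bound by α5β1, had 493, 611 and 716. COL1A1 (collagen type I, a ligand of α2β1) had 452, 373 and 737, and LAMC1 (laminin γ1) had 145, 147 and 214. Among those of at least 1 CPM in some library, no gene of these lists differed 2-fold in RNA level from parental cells. This held in every line on the log2(CPM + 1) scale, and genes below 1 CPM had too few counts to compare.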

How the data were processed

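iCLIP was made in 18 samples and input RNA in 12 libraries of U-87 MG lines. Samples were grouped by their labels. The integrins and gene lists were chosen with earlier results of these data known.

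Per the methods and the submitters' processing notes, the authors trimmed reads (Trim Galore 0.6.10 for the input), removed rRNA and tRNA reads with Bowtie 2, aligned with STAR 2.7.10b to GRCh38.p13, collapsed duplicates with UMI-tools, called peaks per replicate with Clippy, and merged, summed and subtracted parental peaks with bedtools 2.30.0. The deposited score of a peak is that sum and is not scaled to iCLIP depth, which is not known here. Merging and subtraction can join or trim peaks. The deposited counts are raw STAR reads per gene, and the sense-strand column was used (reverse for long RNA).

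Peaks were placed by their centre on the same strand, with GENCODE release 44, which is later than the authors' release. Of 62750 gene identifiers 62625 matched. Regions were ranked CDS, 5'UTR, 3'UTR, ncRNA, intron. No integrin peak lay in a second same-strand gene. Counts were scaled by TMM (edgeR 4.0.16) and compared as log2(CPM + 1) among genes of at least 1 CPM in 1 or more libraries. Calls were made at 2-fold, and this calling was tested on simulated data. Score shares used a pseudocount of 1. Intervals are exact Poisson (counts, scores), Wilson (shares) and exact binomial (ratios), computed in scipy 1.17.1. Input counts carry no stated molecular identifiers, and summed scores are taken as crosslink counts, so all are minimum errors. Named were all 8 genes, the highest FL peak of each gene that had one, some of the other peaks of 10 or more, and the 3 genes of highest FL score in each related list. The ITGA3 intronic and exon 25 sequences were added after their values were seen. The small-RNA libraries (6181270 to 10307756 counts) served as an alternative. Alternatives covered peak placement, score limits, annotation rule, overlap, pseudocounts, scaling (DESeq2 1.42.0 size factors) and count column.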

Additional observations from a re-analysis of the deposited data

How the results depend on the processing

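No paired analysis was possible because the peak lists are pooled over replicates and the input libraries have 1 sample per line, so no replicate could be left out either. Placing peaks by an overlap of 1 nt moved no count or score. Limits on the score did: with scores above 3, the 8 genes had 59 peaks and 651 score units (FL), 75 and 711 (ΔNTR), and 67 and 914 (ΔCTR). At 10 or more they had 13 and 388, 18 and 393, and 24 and 675. Exonic centres alone left 723 score units in FL and 911 in ΔCTR. With the 3'UTR ranked before coding sequence, its share of integrin peaks was 58.2% with FL, 65.5% with ΔNTR and 63.3% with ΔCTR. An overlap of 50% of both peaks lowered the overlapped share of FL peaks to 23.6% for ΔNTR and 33.6% for ΔCTR, and scores above 3 in both lists gave 61.0% for ΔNTR. With scores above 3, 1 gene, ITGAV, passed 2-fold in ΔCTR (log2 1.08). The median score per 1000 counts over the 8 genes was 5.62 with FL, 4.23 with ΔNTR and 3.73 with ΔCTR, and 1.23, 2.60 and 2.20 with scores above 3, which drops the low genes. Small-RNA input gave no such median, since ITGA6 had no count there. No scaling, pseudocount, filter or count column gave a 2-fold integrin RNA difference on the log2 scale with a pseudocount. The small-RNA libraries gave none either, with differences of up to log2 0.90, but they could call little. The integrins had at most 81 counts there, ITGB3 had 2 to 14 and ITGA6 had 0. At such counts the pseudocount shrinks a difference in CPM. The depth of the iCLIP libraries is unknown here and limits every comparison between lists.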
